A study of Mus musculus and Ictidomys tridecemlineatus with 36 samples.

Results

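The 6 transcription factors that mark the eye field and the retinal progenitors made from it, *Pax6*, *Rax*, *Six3*, *Six6*, *Lhx2*, and *Sox2*, were followed through the CUT&RUN peak lists of P2 mouse retina. They are 6 of 21884 protein-coding genes on the main chromosomes of the GENCODE M21 annotation, and are a set of named progenitor genes. For each gene, the peaks within 1 kb of any annotated transcription start site (TSS) and those in the gene body plus 50 kb on each side, called its window, were taken from all 5 mouse lists. The windows held 242 of the 246656 mouse peaks. In GRCm38 coordinates, *Pax6* lies at chr2:105668900-105697364 on the plus strand with 24 TSSs, and *Lhx2* at chr2:38339281-38369733 on the plus strand with 7. *Rax* lies at chr18:65928277-65939787 on the minus strand with 7 TSSs. *Six3* lies at chr17:85613608-85629302 on the plus strand with 3. *Six6* at chr12:72939892-72944899 and *Sox2* at chr3:34650405-34652461, both on the plus strand, have 1 TSS each.

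The eye field is the patch of anterior neural plate that becomes the eyes, and these factors are the core of its regulatory network. Pax6, a paired-domain and homeodomain protein, and Rax, a paired-like homeodomain protein, are needed for eyes to form. Six3 and Six6 are closely related homeodomain proteins, Lhx2 is a LIM-homeodomain protein needed for the optic vesicle, and Sox2 is an HMG-box protein of neural progenitors. Progenitors keep these genes on, and several stay on in particular neurons or in Muller glia. H3K4me3 marks active promoters, H3K27ac marks active promoters and enhancers, and H3K4me1 marks enhancers, active or not. Otx2, a homeodomain protein, and Neurod1, a basic helix-loop-helix protein, act in neurogenic progenitors and photoreceptor precursors.

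CUT&RUN cuts chromatin around an antibody bound to a histone mark or protein and sequences the released fragments. Nuclei came from snap-frozen mouse retinas at postnatal day 2 in 2 biological replicates, each a pool of retinas from 3 animals, with no genotype, treatment, or strain stated for these samples. The labels list 2 libraries each for H3K4me3, H3K27ac, H3K4me1, and the IgG control, 4 for Neurod1, and 8 for Otx2, of which 4 used an R&D Systems antibody and 4 an Atlas Antibodies one. Peaks of a target were called on its libraries together, so each peak carries 1 fold enrichment over IgG and 1 −log10 q-value, no value below has a replicate error, and read depth is unknown. At TSSs of retinal marker genes, 5 of 6 had an H3K4me3 peak and 5 of 6 an H3K27ac peak, with *Rcvrn* lacking both. For H3K4me3 and H3K27ac, the counts were 2 and 1 of 6 for pigment epithelium markers, 0 and 0 of 5 for lens, 2 and 1 of 5 for vessel and blood, 0 and 1 of 4 for microglia, and 1 and 0 of 4 for liver and muscle. Whole retina was assayed, so a mark on more nuclei and more of a mark per nucleus cannot be told apart.

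Selected peaks of Otx2 or Neurod1 away from TSSs are shown here as sequence, because they are the highest or the shared factor peaks of their windows and their values recur below. Each runs from 150 bases before the peak summit to 149 after it, on the plus strand of GRCm38. Capitals mark the letters TAATCC (the core read by Otx2 and its relatives), CAGATG (an E-box read by Neurod1), and TAATTA (read by many homeodomain proteins), searched on both strands, so that GGATTA and CATCTG are the first and second on the minus strand. The *Sox2* element downstream of the gene, chr3:34679905-34680204, had the highest Otx2 peak near *Sox2* and lies in an exon of the long noncoding gene *Sox2ot*. The upstream *Sox2* element, chr3:34630145-34630444, is in a *Sox2ot* intron. A TAATCC centred 148 bp after its summit runs past the printed end, so it is cut and not in capitals. The *Six6* element, chr12:72952407-72952706, is in an intron of the noncoding gene *Gm26709*. The *Six3* element, chr17:85660129-85660428, is intergenic and is centred on the higher Neurod1 peak of that window. It is named after the window, and its nearest annotated TSS is one of *Six2*.
Sox2 downstream, Otx2: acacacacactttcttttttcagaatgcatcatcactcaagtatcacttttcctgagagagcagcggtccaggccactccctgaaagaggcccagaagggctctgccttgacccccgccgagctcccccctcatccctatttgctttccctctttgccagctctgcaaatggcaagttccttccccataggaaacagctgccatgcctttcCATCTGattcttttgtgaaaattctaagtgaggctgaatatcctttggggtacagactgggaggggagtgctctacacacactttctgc
Sox2 upstream, Otx2: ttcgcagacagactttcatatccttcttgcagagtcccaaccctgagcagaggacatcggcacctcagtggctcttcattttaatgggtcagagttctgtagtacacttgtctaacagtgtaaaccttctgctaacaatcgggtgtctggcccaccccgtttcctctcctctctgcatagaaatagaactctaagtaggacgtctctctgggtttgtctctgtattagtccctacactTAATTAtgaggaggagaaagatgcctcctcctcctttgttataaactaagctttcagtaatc
Six6 downstream, Otx2: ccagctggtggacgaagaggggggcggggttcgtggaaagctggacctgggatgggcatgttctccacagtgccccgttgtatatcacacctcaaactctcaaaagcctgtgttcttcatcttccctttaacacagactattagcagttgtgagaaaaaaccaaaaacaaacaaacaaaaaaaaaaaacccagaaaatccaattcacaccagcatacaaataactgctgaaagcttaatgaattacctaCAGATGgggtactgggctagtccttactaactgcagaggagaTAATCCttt
Six3 downstream, Neurod1: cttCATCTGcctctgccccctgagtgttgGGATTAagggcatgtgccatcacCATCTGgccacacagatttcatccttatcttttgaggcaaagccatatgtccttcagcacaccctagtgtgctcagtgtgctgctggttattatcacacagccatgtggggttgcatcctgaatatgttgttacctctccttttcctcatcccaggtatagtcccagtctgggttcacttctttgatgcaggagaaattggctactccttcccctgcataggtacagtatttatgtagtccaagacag

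The first question was how these promoters were marked. All 6 genes had H3K4me3, H3K27ac, H3K4me1, and Otx2 peaks within 1 kb of a TSS, and none had a Neurod1 peak there. Over all protein-coding genes the shares were 56.0% for H3K4me3, 22.5% for H3K27ac, 63.7% for H3K4me1, 51.0% for Otx2, and 5.74% for Neurod1. With the share of Neurod1 so low over all genes, 0 of 6 is near the background. All 6 genes had wide H3K4me3 peaks, and such peaks commonly carry the other marks. Of 144 H3K4me3 peaks of at least 5 kb at protein-coding TSSs, these 6 included, 100% overlapped H3K4me1 and Otx2 peaks. An H3K27ac peak overlapped 79.2% of them. The fold given for a peak is that at its summit, which in a wide peak can lie kilobases from the TSS that the peak reaches. With the summit itself required within 1 kb of a TSS, 3 of the 6 genes kept an H3K4me3 peak there (*Rax*, *Lhx2*, and *Sox2*), 5 kept H3K27ac, 5 kept H3K4me1, and 6 kept Otx2.

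*Rax* had the highest H3K4me3 fold enrichment of all 14069 H3K4me3 peaks, 159-fold with a −log10 q of 1518, against a list median of 13.5 and a 99th percentile of 66.5. That peak was 9622 bp wide, rank 13 by width, and covered 83.2% of the gene and all 7 TSSs. Its H3K27ac peak at the TSS reached 5.67-fold and its H3K4me1 peak 13.3-fold, with the H3K4me1 summit 2.15 kb from the nearest TSS. The 2 Otx2 peaks at its TSSs reached 3.04-fold and 5.19-fold. A TSS of the opposite-strand gene *Raxos1* is 258 bp from a *Rax* TSS, so the promoter marks of the pair cannot be told apart.

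*Six3* and *Six6* ranked 6 and 7 by H3K4me3 fold. The *Six3* peak had 129-fold enrichment and a width of 21563 bp, rank 3 by width. The *Six6* peak had 127-fold enrichment and a width of 12242 bp, rank 7. They covered 98.6% of *Six3* and 100% of *Six6*. The H3K4me3 summits lay 1.53 kb and 1.21 kb from the nearest TSS. The peaks that reached their TSSs also had the highest H3K27ac summits of the 6 genes, 12.8-fold at *Six3*, in a peak 13482 bp wide, and 9.61-fold at *Six6*, in a peak 6137 bp wide. Those summits lay 5.42 kb and 5.06 kb from the TSS. Of H3K27ac peaks with a summit within 1 kb of a TSS, the highest was 3.21-fold at *Six3*, *Six6* had none, and *Pax6* came first with 8.63-fold. H3K4me1 was laid out alike at both genes, low at the TSS and high some kilobases away. Peaks with a summit within 1 kb of the TSS had 3.81-fold at *Six3* and 2.38-fold at *Six6*. The higher peaks had 9.86-fold at *Six3*, with a summit 7.72 kb away in a peak that reached the TSS, and 15.8-fold at *Six6*, with a summit 8.81 kb past the TSS in a peak of 7029 bp that did not. Otx2 in peaks that reached a TSS was up to 5.01-fold at *Six3*, with a summit 1.64 kb away, and 3.49-fold at *Six6*. A TSS of another gene lies 30 bp from a *Six3* TSS (*Gm28528*) and 191 bp from the *Six6* TSS (*4930447C04Rik*, which is protein-coding). The promoter marks of each pair cannot be told apart.

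*Pax6* had the second widest H3K4me3 peak of the list at 23272 bp, after one of 27099 bp, and it held 23 of the 24 *Pax6* TSSs and 73.3% of the gene. Its fold of 52.4 was the lowest of the 6 genes but was reached by only 369 peaks of the list, its own included. H3K27ac was split into 9 peaks at TSSs of between 2.92-fold and 8.63-fold. *Pax6* held the highest H3K4me1 at a TSS of the 6 genes, 16.2-fold in a peak 16703 bp wide whose summit lay 4.56 kb upstream of the nearest *Pax6* TSS. It also held the highest Otx2 at a TSS, 7.15-fold, as 1 of 10 Otx2 peaks within 1 kb of its TSSs. These maxima were taken over 24 TSSs, where *Six6* and *Sox2* have 1 each. The H3K4me1 peak also reached a TSS of the gene *Paupar*. An opposite-strand TSS of *Pax6os1* lies 1345 bp from a *Pax6* TSS, so the promoter marks of these genes cannot be told apart.

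*Lhx2* differed in that its main H3K4me3 peak, of 82.2-fold and 8442 bp (rank 56 by fold and 19 by width), lay inside the gene and covered 36.6% of it, with 4 of the 7 TSSs. The 5′ end of the gene had a separate H3K4me3 peak of 12.3-fold and 1574 bp, which overlapped H3K4me1 but no H3K27ac or Otx2 peak. H3K27ac at its TSSs was between 2.34-fold and 4.74-fold in 4 peaks. H3K4me1 peaks that reached a TSS had up to 9.15-fold, with a summit 3.87 kb away, or 7.70-fold with the summit within 1 kb. Otx2 reached 3.91-fold.

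*Sox2*, a gene of a single exon, had H3K4me3 of 55.1-fold in a peak of 7167 bp, rank 307 by fold and 38 by width, which covered the whole gene. Of the 6 genes, it had the lowest H3K27ac fold in a peak that reached a TSS, a single peak of 3.02-fold and 438 bp. An H3K4me1 peak 13321 bp wide and of 13.6-fold reached the TSS, but its summit lay 7.56 kb upstream in a *Sox2ot* intron, and the H3K4me1 peak with its summit within 1 kb of the TSS had 3.23-fold. The Otx2 peak at the TSS had 4.90-fold.

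**Figure D1:**
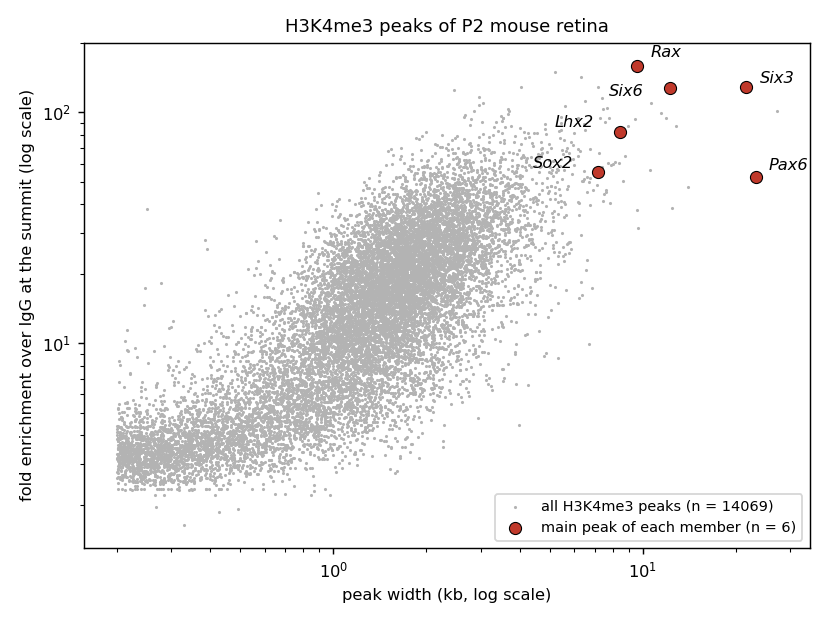
Width (horizontal, kb, log scale) against fold enrichment over IgG (vertical, log scale) of all 14069 H3K4me3 peaks in grey, with the main peak of each of the 6 genes in red. The 6 peaks lie at the wide end, between 7167 and 23272 bp, and *Rax* has the highest fold of the list, 159.

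All 6 main H3K4me3 peaks were wider than the 99th percentile of the list, 5110 bp, where the list median was 1338 bp. The order by width was *Pax6*, *Six3*, *Six6*, *Rax*, *Lhx2*, and *Sox2*, and the order by fold was *Rax*, *Six3*, *Six6*, *Lhx2*, *Sox2*, and *Pax6*, so that *Pax6* was first by one and last by the other. With no replicate values, neighbours in these orders, such as *Six3* and *Six6* by fold, cannot be said to differ.

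The cover of these broad domains by other marks varied more between the genes. H3K27ac peaks covered 88.6% of the *Six3* domain, 85.1% of that of *Six6*, and 84.8% of that of *Pax6*. They covered 67.5% at *Lhx2*, 43.0% at *Rax*, and 6.11% at *Sox2*. Over the 144 H3K4me3 peaks of at least 5 kb that reach within 1 kb of a protein-coding TSS, these 6 included, the median H3K27ac cover was 20.9%, with quartiles of 4.51% and 49.6%. *Sox2* was the single gene of the 6 below that median. *Sox2* and *Rax* lay inside the quartiles and the other genes above them. H3K4me1 covered 95.7% of the *Pax6* domain, 79.9% at *Lhx2*, 79.5% at *Sox2*, 62.8% at *Six3*, 47.5% at *Rax*, and 39.0% at *Six6*, beside a median of 58.9%. Otx2 covered between 40.8% at *Lhx2* and 65.1% at *Rax*, beside a median of 44.0%. No Neurod1 peak touched any of the 6 domains, and 30.6% of the 144 had one. All 144 held H3K4me1 and Otx2 peaks, so the presence of these 2 targets is not particular to the 6 genes.

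**Figure D2:**
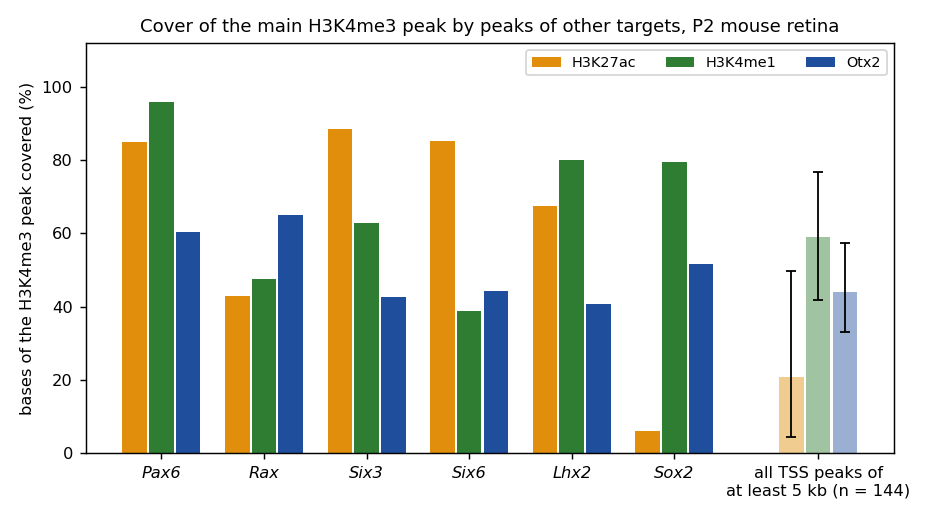
Percent of the bases of each gene's main H3K4me3 peak (vertical) that were covered by H3K27ac (orange), H3K4me1 (green), and Otx2 (blue) peaks. The pale bars are the medians over 144 H3K4me3 peaks of at least 5 kb at protein-coding TSSs, with lines from the lower to the upper quartile. H3K27ac covers between 67.5% and 88.6% at *Lhx2*, *Pax6*, *Six6*, and *Six3*, and 6.11% at *Sox2*.

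At the summit of the H3K4me3 domain itself, an H3K27ac peak was present in 5 of 6 genes, with *Sox2* lacking one, against 44.8% of the 154 H3K4me3 peaks of at least 5 kb and 18.5% of all H3K4me3 peaks. An H3K4me1 peak lay at the summit in 3, *Pax6*, *Lhx2*, and *Sox2*, against 35.1% of the wide peaks. At *Rax*, *Six3*, and *Six6*, the genes with the 3 highest folds, the H3K4me3 summit lay in a gap between H3K4me1 peaks. An Otx2 peak covered the summit in *Pax6*, *Rax*, and *Sox2*, 3 of 6, against 63.0% of the wide peaks.

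CpG dinucleotides, which are dense in CpG island promoters, were counted next. Their observed over expected ratio in the H3K4me3 domain was between 0.42 at *Rax* and 0.72 at *Sox2*, the single gene above the list, against a median of 0.67 over all H3K4me3 peaks and 0.61 over those of at least 5 kb. Within 500 bp of the TSS, *Sox2* had the highest value, 0.96, and the medians over the TSSs of the other genes were between 0.52 and 0.69, where the median over all 93504 TSSs was 0.43.

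The second question was how many peaks lay around each gene. The 6 windows together held 21 H3K4me3, 54 H3K27ac, 88 H3K4me1, 74 Otx2, and 5 Neurod1 peaks. The windows of *Pax6* and *Sox2* each held 18 Otx2 peaks, that of *Rax* 15, *Six3* 11, and *Six6* and *Lhx2* 6 each, where the median over all genes was 3. Per 100 kb of window, *Sox2* had 17.6 Otx2 peaks, a density that 7 protein-coding genes reached, itself included. *Pax6* had 14.0 per 100 kb, reached by 0.324% of genes, *Rax* 13.5, reached by 0.416%, and *Six3* 9.51, reached by 1.96%. *Six6* with 5.71 and *Lhx2* with 4.60 were reached by 9.98% and 16.2% of genes. Windows also take in neighbouring genes. Several Otx2 peaks of the *Rax* window, its highest included, had a TSS of the neighbour *Cplx4* as the nearest.

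These Otx2 peaks were many but not high. Their median fold was 3.31, beside 3.54 over the 29115 Otx2 peaks of the list. Of the 74, 36 overlapped the main H3K4me3 domains, 12 of them at *Pax6*. Counted separately, 38 were over 1 kb from any TSS of any gene. These groups overlap, since some peaks of the domains, such as one of 5.69-fold at *Pax6*, were also that far from a TSS. Measured as bases instead of peaks, Otx2 covered 14.9% of the *Sox2* window, 14.6% at *Pax6*, 13.1% at *Rax*, 10.7% at *Six3*, 6.02% at *Six6*, and 3.42% at *Lhx2*, where the median over all genes was 1.22%. The order was the same as by density.

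**Figure D3:**
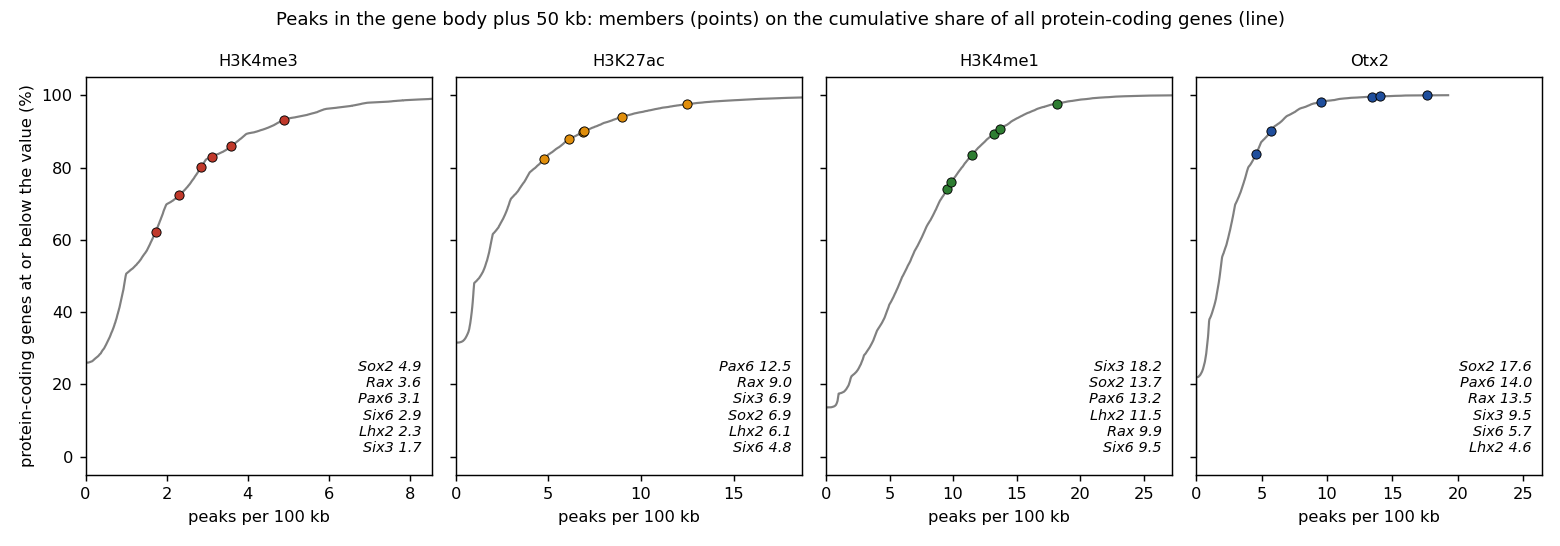
Peaks per 100 kb of window (horizontal) for H3K4me3, H3K27ac, H3K4me1, and Otx2, with the cumulative percent of 21884 protein-coding genes as a grey line (vertical) and the 6 genes as points named in each panel. For Otx2, *Sox2*, *Pax6*, *Rax*, and *Six3* sit above 98% of genes, and *Lhx2* sits lowest at 4.60.

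H3K27ac density was between 4.76 per 100 kb at *Six6* and 12.5 at *Pax6*, values reached by 17.8% and 2.52% of genes. H3K4me1 density was between 9.52 at *Six6* and 18.2 at *Six3*, reached by 26.1% and 2.34% of genes. H3K4me1 covered 49.7% of the *Pax6* window and 44.2% of the *Sox2* window, which 23 and 48 protein-coding genes reached. H3K4me3 peaks were few but wide. They numbered between 2 and 5 per window, beside a median of 2, and covered between 8.82% of the window at *Lhx2* and 20.3% at *Pax6*, beside a median of 1.58%. Those covers were reached by 3.99% and 0.114% of genes. H3K27ac covered between 3.73% at *Sox2* and 18.4% at *Pax6*, beside a median of 0.69%.

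**Figure D4:**
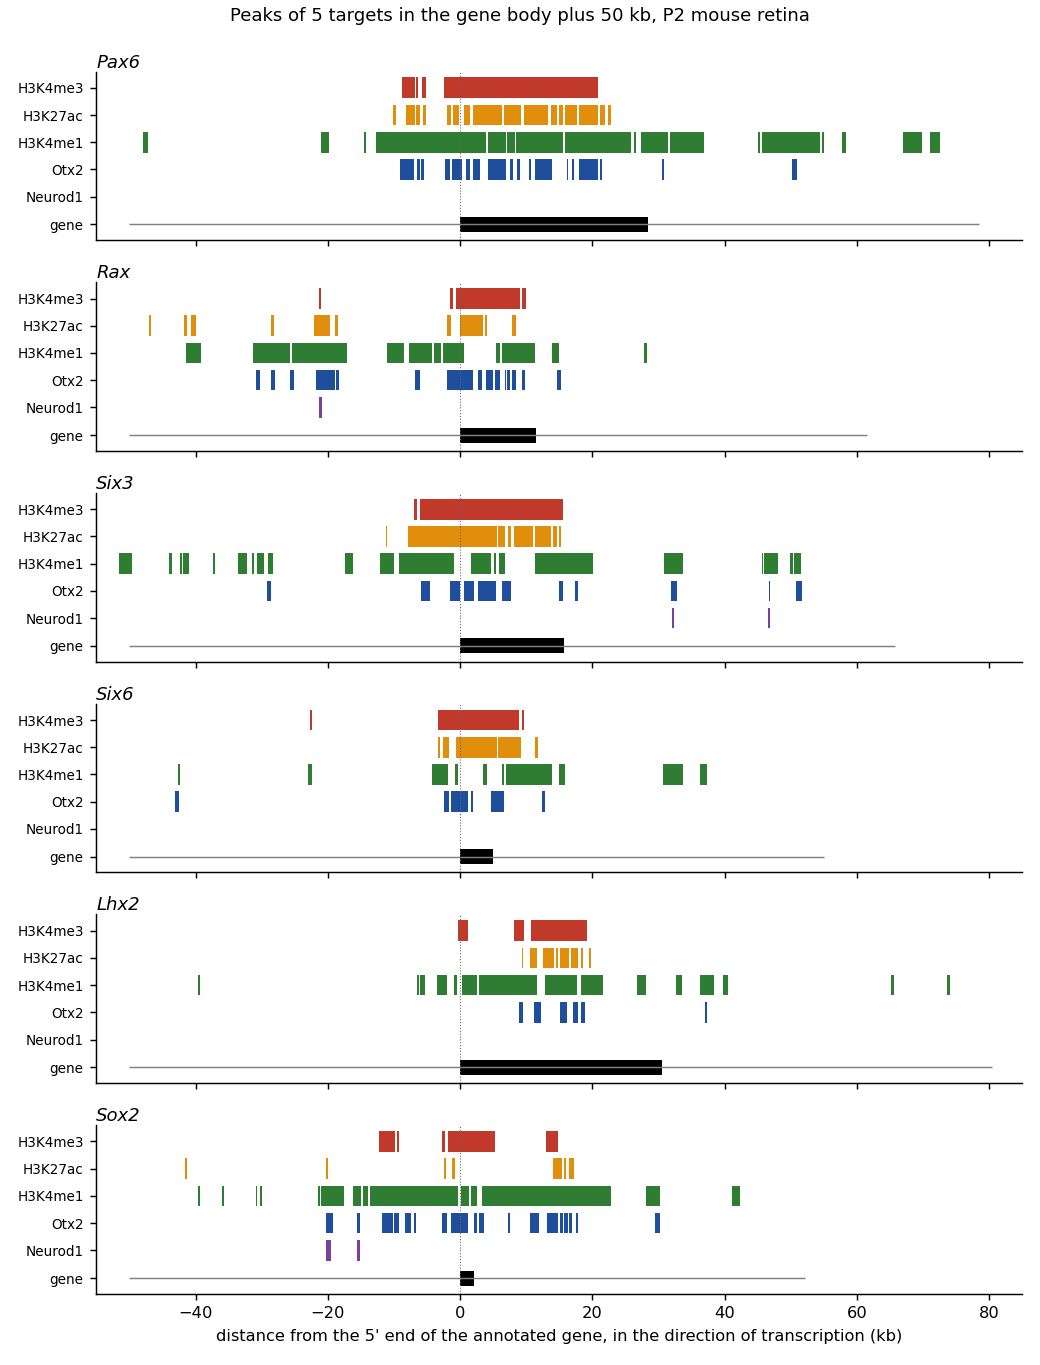
Peaks of each target (coloured bars, to scale) in the window of each gene, by distance in kb from the 5′ end of the annotated gene in the direction of transcription. The gene is the black box and the window the thin line. Broad H3K4me3 covers most of *Pax6*, *Rax*, *Six3*, *Six6*, and *Sox2* but the middle of *Lhx2*, Neurod1 bars appear at *Rax*, *Six3*, and *Sox2* alone, and all lie away from the genes.

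Enhancer classes were then counted after the study's scheme but on whole peaks and without its accessibility data, with H3K27ac without H3K4me3 called active and H3K4me1 without either called poised. The windows held 15 active enhancer peaks, 5 at *Rax*, 4 at *Sox2*, 3 at *Pax6*, and 1 each at *Six3*, *Six6*, and *Lhx2*. The classes were not limited to distal peaks. Some active ones, with and without Otx2, lay within 1 kb of an annotated TSS, such as that of *Six6*, 369 bp from a *Gm38170* TSS. The windows also held 56 poised enhancer peaks, 15 at *Six3*, 12 at *Pax6*, 11 at *Lhx2*, 9 at *Sox2*, 5 at *Rax*, and 4 at *Six6*. *Six3*, with H3K27ac over most of its promoter domain, thus had 1 active and 15 poised peaks outside it. Poised peaks at *Six3* numbered 13.0 per 100 kb, reached by 1.45% of genes, where the median was 3.12.

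Otx2 overlapped 6 of the 15 active enhancer peaks (40.0%), beside 11.0% of the 58164 in the genome, and 12 of the 56 poised ones (21.4%), beside 6.98% of 94101. The active ones with Otx2 were 3 at *Sox2*, 2 at *Rax*, and 1 at *Pax6*. Neurod1 overlapped 1 active peak (6.67%), at *Sox2*, beside 3.20%, and 3 poised peaks (5.36%), beside 1.19%. The Neurod1 counts rest on 4 enhancer peaks and are too few to set apart from the background. Peaks of 1 window share a locus and are not independent of each other.

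The highest factor binding near any of the 6 genes lay 21.3 kb upstream of *Rax*, in an intron of *Cplx4*, a gene for a complexin of photoreceptor and bipolar cell synapses. There Otx2 reached 12.4-fold with a −log10 q of 139, and Neurod1 8.80-fold with a −log10 q of 78.1. The 2 summits were 2 bp apart, where the median distance over all overlapping Otx2 and Neurod1 peaks was 66 bp. The element lay in an H3K4me1 peak of 17.2-fold and 8427 bp and overlapped an H3K27ac peak of 3.44-fold. An H3K4me3 peak of 2.72-fold and a −log10 q of 2.91 at the same place kept it out of both enhancer classes. The highest distal H3K27ac of the *Rax* window, 3.96-fold, was 40.4 kb upstream, between genes.

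Around *Sox2*, the highest Otx2 peak was the downstream element printed above, 29.7 kb past the TSS, with 9.20-fold enrichment and a −log10 q of 34.9. It lay in a poised H3K4me1 peak of 12.2-fold, with no H3K27ac. The upstream element, 20.1 kb before the TSS, had Otx2 of 6.57-fold, Neurod1 of 3.38-fold, H3K27ac of 4.13-fold, and H3K4me1 of 20.3-fold, the highest H3K4me1 peak of the 6 windows. It was the single active enhancer peak with both factors and was chosen for print after its values were seen. Its Neurod1 summit lay 444 bp from the Otx2 summit, past the end of the printed bases and outside the H3K27ac peak. The other Neurod1 peak, of 3.93-fold, lay 15.4 kb upstream under H3K4me1 of 9.81-fold. The highest distal H3K27ac, 4.18-fold, was 16.6 kb past the TSS. All of these distal elements lie within *Sox2ot*, a long noncoding gene that spans *Sox2*.

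At *Six3*, both Neurod1 peaks were intergenic and downstream, 24.7 kb and 39.2 kb from the nearest *Six3* TSS, with 2.74-fold and 5.38-fold enrichment. The farther and higher of the 2 was nearer to a TSS of *Six2*, 27806 bp from the peak. Neither peak was tested for a target gene. The 2 Neurod1 peaks lay in poised H3K4me1 peaks of 5.65-fold and 11.2-fold, and both overlapped Otx2 peaks of 3.26-fold. The highest distal Otx2 peak of the window, 4.24-fold, was instead 5.37 kb upstream in an exon of *Six3os1*, inside the H3K4me3 domain. The highest distal H3K27ac, 6.73-fold, was also inside that domain, 4.48 kb past a TSS in the *Six3* UTR.

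*Six6*, *Pax6*, and *Lhx2* had no Neurod1 peak in their windows. The highest Otx2 peak of the *Six6* window was the distal one printed above, 12.7 kb past the TSS, with 5.78-fold enrichment, more than the 3.49-fold at its promoter. It lay within the H3K4me1 peak of 15.8-fold. The highest distal H3K27ac at *Six6*, 4.21-fold, was 3.23 kb upstream and overlapped the H3K4me3 domain. At *Pax6*, the highest distal Otx2 peak, 5.69-fold, lay in a *Pax6* intron, and the highest distal H3K27ac, 5.37-fold, lay 1.76 kb upstream of a TSS. Both overlapped the H3K4me3 domain. At *Lhx2*, the highest distal Otx2 and H3K27ac peaks, 3.46-fold and 4.52-fold, both lay in *Lhx2* introns inside the H3K4me3 domain.

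All 5 Neurod1 peaks of the 6 windows overlapped an Otx2 peak. This is close to the list as a whole, where 82.1% of 4744 Neurod1 peaks did. Their summits lay between 2 bp (*Rax*) and 444 bp (*Sox2*, upstream) from the nearest Otx2 summit, and 90% of the overlapping pairs of the list lay within 382 bp.

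Motif letters were searched around the summits. Within 150 bp of the summit, 13 of 74 held TAATCC (17.6%), beside 18.3% of all Otx2 summits. CAGATG was present at 21 of 74 (28.4%), beside 22.3%. Among the 38 distal summits, 9 held TAATCC (23.7%), beside 25.1%, and 10 held CAGATG (26.3%), beside 29.5%. Of the 36 summits of peaks within 1 kb of a TSS, not the same set as the 36 in H3K4me3 domains, 11 held CAGATG (30.6%), beside 14.1%. TAATTA was present at 14 of 74 (18.9%), beside 7.74%, and among the 38 distal summits at 10 (26.3%), beside 11.9%. Neighbouring peaks at times shared a match, as 2 *Pax6* Otx2 peaks shared 1 TAATTA. For Neurod1, 3 of the 5 summits had CAGATG, beside 52.3% of the list. In the printed *Six3* element, the TAATCC and 1 of the 2 CAGATG matches fell in bases that the RefSeq genome masks as repeats. The matches of the printed *Six6* element lay 102 bp (CAGATG) and 144 bp (TAATCC) from the summit, the second beyond the end of the called peak.

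Against other gene lists, the 6 genes were set by their counts and medians. Of 10 other optic cup genes, mostly transcription factors, all had H3K4me3 at a TSS. Their median highest fold was 67.0, beside 105 for the 6 genes and 5.67 over all protein-coding genes. *Mab21l2*, a gene needed for eye growth, was highest at 99.3 and *Vax1*, a factor of the optic stalk, lowest at 6.41. H3K27ac was present at 6 of the 10, with *Meis1*, a homeodomain factor of early eye development, highest at 9.40-fold. Otx2 was present at 9 and Neurod1 at none. Of 10 genes of progenitor maintenance, such as those of Notch signalling and the cell cycle, all had H3K4me3 with a median of 37.1, 7 had H3K27ac, 10 had Otx2, and 1 had Neurod1, the receptor gene *Notch1* at 2.12-fold.

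Relatives from the same gene families carried less promoter marking. Of 12, including *Pax2*, *Lhx1*, and *Sox1*, 5 had H3K4me3 at a TSS, with a median of 0 and the highest, *Sox3*, at 18.8-fold, below all 6 genes. None had H3K27ac and none Neurod1, while 12 had H3K4me1, with a median of 7.49-fold beside 11.6-fold for the 6 genes. Otx2 was present at 5, with *Pax5* highest at 5.41-fold. Of 10 photoreceptor transcription factors, 9 had H3K4me3 (median 43.6, *Casz1* highest at 129), 9 had H3K27ac, and 9 had Otx2, with a median of 6.03-fold beside 4.95-fold for the 6 genes and *Crx*, a master regulator of photoreceptor genes, highest at 14.6-fold. Neurod1 was present at 6 of the 10, led by *Neurod1* itself at 11.1-fold. *Esrrb* lacked all but H3K4me1.

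**Figure D5:**
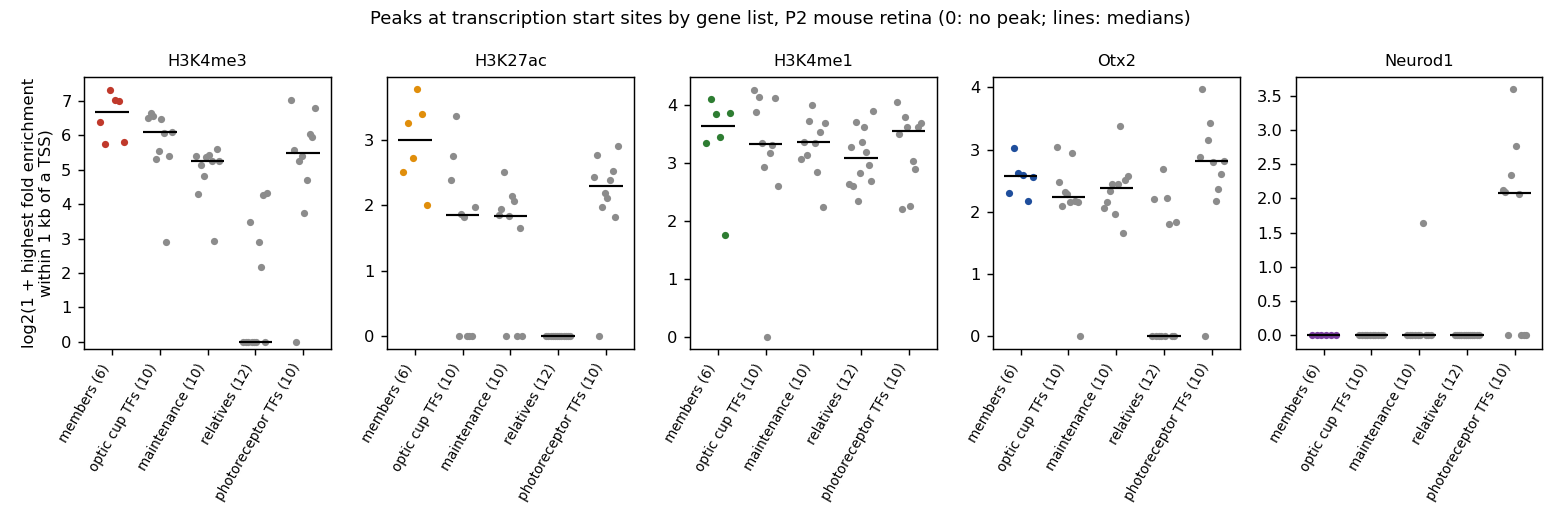
Highest fold enrichment within 1 kb of a TSS, as log2(1 + fold), for each gene of 5 lists (points, the 6 genes in colour) and 5 targets (panels), where 0 means no peak and a line marks the median. The relatives sit at 0 for H3K27ac, and Neurod1 peaks appear mainly among the photoreceptor factors.

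The genes most like the 6 were found by distance on log2(1 + highest TSS fold) over the 5 targets from the medians of the 6. They were *Rorb* (distance 0.29), an orphan nuclear receptor of photoreceptor and other retinal neurons, *Mab21l2* (0.35), *Picalm* (0.58), a clathrin adaptor, *Ranbp9* (0.61), a scaffold protein, and *Tet2* (0.62), a DNA demethylating enzyme. The 6 genes themselves lay between 0.70 (*Lhx2*) and 1.99 (*Six6*) from their own medians. *Rorb* and *Mab21l2* also had broad H3K4me3 peaks, 10657 bp and 11466 bp, while those of *Picalm*, *Ranbp9*, and *Tet2* were between 2652 and 4011 bp.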

How the data were processed

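CUT&RUN peak lists of P2 mouse retina for 5 targets were used. According to the methods and the submitters' processing notes, the authors trimmed reads (cutadapt 3.5, Trim Galore 0.6.4), aligned them to GRCm38 with Bowtie2, filtered them with SAMtools 1.12, removed duplicates with UMI-tools, and combined technical replicates. Their MACS2 calls, at a q-value threshold of 0.05 against IgG, used the pooled replicates of each target, which leaves 1 value per peak. The deposited fold enrichment is a ratio of pooled signal to IgG, and the deposited significance is a −log10 q-value. Neither was rescaled. The deposited summit offset gave summit positions.

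The analysis was run in Python 3.11.15 (numpy 2.4.6, pandas 2.3.3, pysam 0.24.0 for sequences, matplotlib 3.10.9 for plots). Peaks that shared 1 bp or more were counted as overlapping. This step was tested on 5000 simulated intervals against bedtools 2.31.1, with 0 differences. Mouse genes came from GENCODE M21 and sequence from the RefSeq GRCm38 assembly. The mouse lists have no replicate values, so no test was run and no replicate could be left out.

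All 6 genes are named with their TSS peaks. Distal peaks, over 1 kb from any TSS, are named where they hold the highest Otx2, Neurod1, or H3K27ac fold of a window. The members and lists were chosen with earlier results of these data known. Alternatives were TSS distances of 500 bp and 2 kb, protein-coding transcripts only, windows of 20 and 100 kb, a −log10 q of at least 5, a fold of at least 2.5, summits in place of whole peaks, an overlap of 250 bp, merging of peaks within 500 bp, and motif windows of 50 and 250 bp. 13LGS lists were not used here, and H3K27me3 and H3K9me3 were not analysed here. Some items are not reported here.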

Additional observations from a re-analysis of the deposited data

How the results depend on the processing

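Of 104 recalculations of 20 counts, 80 stayed within 1.5 times the reported count. With summits required to lie within 1 kb of a TSS, 3 of 6 genes in place of 6 had H3K4me3. Limited to peaks with a −log10 q of 5 or more, the windows held 32 H3K27ac peaks in place of 54 and 44 Otx2 peaks in place of 74, and 7 active enhancers in place of 15, of which 3 in place of 6 had Otx2 and 2 in place of 1 had Neurod1, since weak H3K4me3 peaks then no longer removed a peak from the class. Merging peaks within 500 bp left 26 H3K27ac peaks. Windows of 20 kb held 54 H3K4me1 peaks in place of 88, 3 Neurod1 peaks in place of 5, 9 active and 25 poised enhancers, 7 poised ones with Otx2 in place of 12, and 0 active ones with Neurod1. Windows of 100 kb held 32 H3K4me3, 161 H3K4me1, and 8 Neurod1 peaks, 116 poised enhancers, and 2 active ones with Neurod1. The single active enhancer with Neurod1 was lost (0) with an overlap of 250 bp and with the Neurod1 summit required inside. Within 50 bp of the summit, TAATCC was found at 0 of 74 Otx2 summits (2.45% of the list), CAGATG at 4 (7.05%), and TAATTA at 2 (1.64%), and no Neurod1 summit held CAGATG (0 of 5, 9.53% of the list). The ranks of the H3K4me3 widths moved most on merging, *Lhx2* from 19 to 27. The 6.11% H3K27ac cover at *Sox2* fell to 0% under the same q limit. No paired analysis was possible because each list is 1 pooled call and no test was run.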
